A study of Mus musculus with 12 samples.

Results

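The natriuretic peptide and cGMP pathway was followed in mouse granulosa cells through 9 genes out of the 18193 that single-gene probe sets of the array name. They are the peptides Nppc and Nppb, the receptors Npr1, Npr2 and Npr3, the cGMP-dependent kinases Prkg1 and Prkg2, and the phosphodiesterases Pde5a and Pde3a. A probe set, which is a group of short oligos against one transcript, was included when the probe annotation gave one of these symbols and no other gene. This gave 18 of 34945 single-gene probe sets: 3 each for Npr3, Prkg2, Pde5a and Pde3a, 2 for Prkg1 and 1 for each other gene.

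Granulosa cells are the somatic cells around the oocyte of an ovarian follicle, and they were collected by puncturing antral follicles. The 4 groups were Inha-/- mice given PMSG and then hCG, wild-type mice given PMSG and then hCG, Inha-/- mice given PMSG alone, and wild-type mice given PMSG alone, with 3 arrays in each group. Inha encodes the alpha subunit of inhibin, a gonadal hormone that opposes activin. All mice were 21 days old, of the strain label C57BL/6J;129S5/SvEvBrd, and received 5 IU of PMSG, a gonadotropin that acts like FSH, for 44 to 46 h. The hCG groups then received 5 IU of hCG, which acts like the ovulatory surge of luteinizing hormone, for 6 h. The labels name no promoter or Cre for the Inha deletion and do not say whether an array holds RNA of 1 mouse or of several. The series design calls the samples independent without naming the animals, and p-values measure only the spread between these samples.

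In the follicle, mural granulosa cells make C-type natriuretic peptide, the product of Nppc, and the peptide activates NPR2, a receptor that is itself a guanylyl cyclase. The cGMP it makes passes through gap junctions into the oocyte, where it inhibits the cAMP-hydrolysing enzyme PDE3A and so helps to hold meiosis in arrest. Luteinizing hormone lowers this cGMP before ovulation. NPR1 is the cyclase receptor for the atrial peptide and for the B-type peptide that Nppb encodes. NPR3 lacks a cyclase domain and clears natriuretic peptides. PDE5A hydrolyses cGMP, and the kinases PRKG1 and PRKG2 are activated by it.

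Promoters are shown for Nppc, Npr1, Npr2 and Npr3, the members that were called in at least 1 comparison and whose 5′ flank was in the RefSeq promoter table. The table, of build GRCm38.p6, matched 7 of the 9 genes and did not match Prkg2 and Pde3a. Each line gives the 250 bases before the start site, 5′ to 3′ on the gene's strand, which is plus for Npr2 and minus for the others: Nppc at chr1:86670574-86670823, Npr1 at chr3:90465867-90466116, Npr2 at chr4:43631685-43631934 and Npr3 at chr15:11907372-11907621. Capitals mark matches to 1 of 7 motifs searched on both strands.
Nppc: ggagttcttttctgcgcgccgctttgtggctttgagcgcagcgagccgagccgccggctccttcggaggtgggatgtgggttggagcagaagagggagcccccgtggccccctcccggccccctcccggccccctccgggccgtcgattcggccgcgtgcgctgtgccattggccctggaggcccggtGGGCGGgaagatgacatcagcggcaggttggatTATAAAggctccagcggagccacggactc
Npr1: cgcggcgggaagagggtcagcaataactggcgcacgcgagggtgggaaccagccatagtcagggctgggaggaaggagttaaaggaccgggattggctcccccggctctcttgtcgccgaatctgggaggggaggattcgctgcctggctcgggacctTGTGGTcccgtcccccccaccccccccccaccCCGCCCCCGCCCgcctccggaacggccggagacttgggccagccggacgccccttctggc
Npr2: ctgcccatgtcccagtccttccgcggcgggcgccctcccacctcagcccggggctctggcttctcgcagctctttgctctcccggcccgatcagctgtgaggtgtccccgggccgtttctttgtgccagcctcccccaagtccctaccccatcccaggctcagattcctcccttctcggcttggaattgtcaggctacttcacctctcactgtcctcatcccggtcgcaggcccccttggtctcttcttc
Npr3: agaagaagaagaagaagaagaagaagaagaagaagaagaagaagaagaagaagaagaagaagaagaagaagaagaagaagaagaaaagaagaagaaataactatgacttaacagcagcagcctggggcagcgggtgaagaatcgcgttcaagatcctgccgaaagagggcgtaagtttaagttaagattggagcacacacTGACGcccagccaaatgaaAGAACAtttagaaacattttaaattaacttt
The motifs were the CRE core TGACG, the AP-1 site TGAGTCA, the RUNX site TGTGGT, the NR5A core AGGTCA, the progesterone receptor core TGTTCT, the GC box GGGCGG and the TATA box TATAAA. The Nppc window held a GC box that begins 62 bases before the start and a TATA box that begins 29 bases before it. The Npr1 window held a RUNX site beginning 92 bases before the start and GC boxes on the other strand beginning 60 and 54 bases before it, which do not overlap. The Npr2 window held no match to any of the 7. The Npr3 window held a CRE core beginning 50 bases before the start and a progesterone receptor core on the other strand beginning 31 bases before it. These letters are common: of 32851 promoters of the same length, 32.7% held the GC box, 17.8% the CRE core, 16.1% the progesterone receptor core, 14% the RUNX site and 12.4% the TATA box. The NR5A core was held by 14% and the AP-1 site by 4.46%, and neither was found in the 4 windows. A match describes letters and does not show binding, and no match says only that these letters are not in the window.

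Expression is given as log2 values that were centred on each probe set's median over the 12 arrays, so a value is a difference from that median and not a level. Whether a signal lay above background was not analysed here, so where one group may be at background its fold depends on that floor. Inha itself was lower on every Inha-/- array, with values from -7.40 to -5.40 in Inha-/- cells and from 5.40 to 5.87 in wild-type cells. The position of its probe set relative to the deletion was not analysed here. Array medians lay between -0.0197 and 0.093. Granulosa markers could not be checked for presence without levels, and the marker lists are given as differences further on.

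Differences were tested with limma across all 45037 probe sets that are not controls, with Benjamini-Hochberg adjustment, and calls were made below an adjusted p of 0.05. By any probe set, 2 of the 9 genes rose and 0 fell after hCG in Inha-/- cells, where 1.58% and 0.187% of all genes did. In wild-type cells 3 rose and 2 fell, where 7.81% and 8.7% did. The size of the response differed between genotypes for Npr1, Npr3 and Prkg2. After hCG, 8 of the 18 probe sets were called between Inha-/- and wild-type cells, against 10.1% of all probe sets. The 4 that were higher in Inha-/- cells, against 5.13% of all, belong to Nppc and Npr3. The 4 that were lower, against 4.95%, belong to Npr1 and Prkg2. The genotypes did not overlap on 9 of the 18 probe sets, against 23.6% of all. The response to hCG had 5 called probe sets in Inha-/- cells, against 1.01% of all, and 7 in wild-type cells, against 9.76%. In Inha-/- cells all 5 were higher after hCG and 0 lower, against 0.93% and 0.0799% of all. In wild-type cells 5 were higher and 2 lower, against 5.1% and 4.66%. The hCG and PMSG arrays did not overlap on 7 probe sets in Inha-/- cells, against 9.22% of all, and on 9 in wild-type cells, against 25.1%. The interaction, which asks whether the hCG response differs between genotypes, was called for 7 probe sets, against 0.759% of all. Of these the 3 positive ones belong to Npr3, against 0.147% of all, and the 4 negative ones to Npr1 and Prkg2, against 0.613%.

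After PMSG alone, limma called 0 of the 18 probe sets between Inha-/- and wild-type cells, against 2.26% of all probe sets, of which 1.04% were higher and 1.22% lower. At an unadjusted p under 0.05 there were 2, 1 of Npr3 and 1 of Pde5a, against 12.8% of all probe sets. The values of the genotypes did not overlap on 3 probe sets, against 15.9% of all. A random block for the number in the array names called 1, the Npr3 probe set 1435184_at, against 6.39% of all. A fit with array weights, whose estimation did not converge, called 2, against 35.9% of all.

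**Figure D1:**
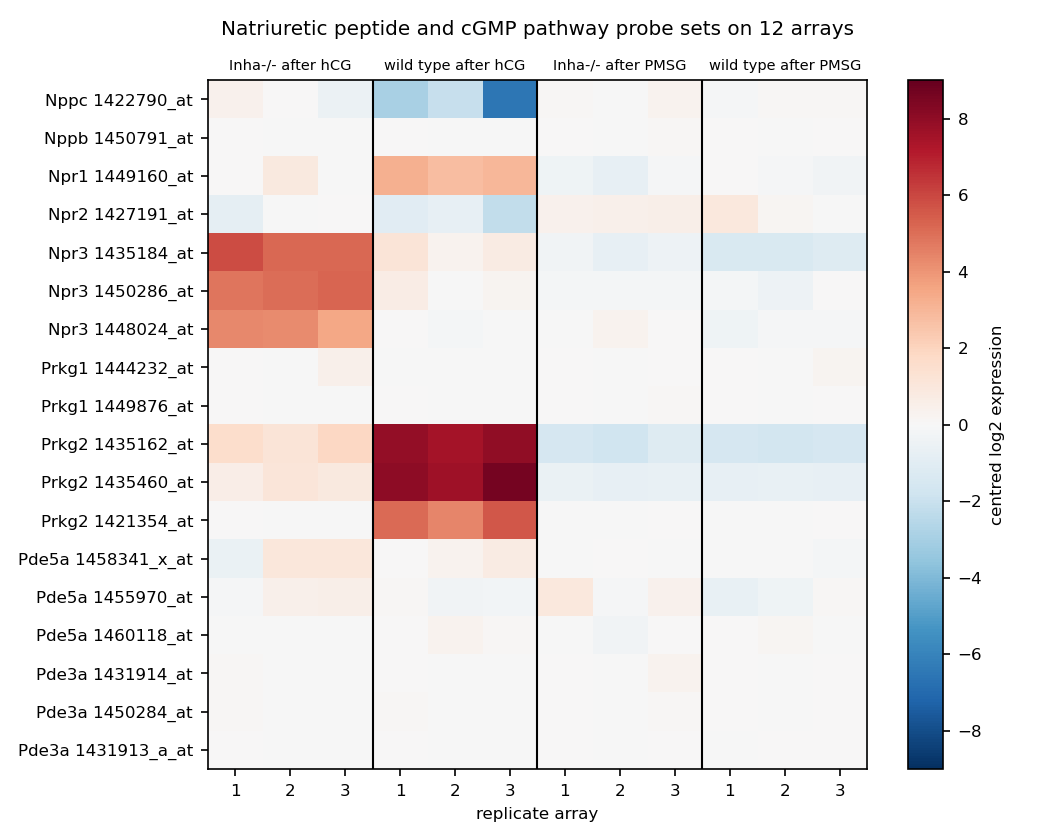
Centred log2 expression of the 18 probe sets (rows) on the 12 arrays (columns, by group and replicate), with red above and blue below the median of a probe set. Prkg2 stands out on the wild-type arrays after hCG, up to 8.61, and Npr3 on the Inha-/- arrays after hCG, up to 5.84, while Nppb, Prkg1 and Pde3a stay between -0.0513 and 0.43.

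Nppc, the ligand of NPR2, was lower after hCG in wild-type cells and was not called in Inha-/- cells. Its values were 0.40, 0.06 and -0.52 in Inha-/- cells after hCG and -2.89, -2.08 and -6.53 in wild-type cells after hCG. They were 0.14, -0.06 and 0.29 in Inha-/- cells after PMSG and -0.12, 0.07 and 0.09 in wild-type cells after PMSG. All 3 wild-type arrays after hCG lay below every other array, and replicate 3 lay far below the other 2. After hCG, Nppc was 14.1-fold higher in Inha-/- than in wild-type cells, a log2 difference of 3.82 ± 0.919 (SE, n = 3 each; limma adjusted p = 0.0295). The hCG response was -0.14 in Inha-/- cells, with a 95% interval from -2.21 to 1.93 and an adjusted p of 0.951 by limma. In wild-type cells hCG lowered Nppc 14.4-fold, a log2 difference of -3.85 ± 0.919 (limma adjusted p = 0.0292). The test of the difference between these responses missed the threshold at 3.71 ± 1.3 (limma adjusted p = 0.344).

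The size of the Nppc difference rested on wild-type replicate 3 after hCG. Without it the genotype difference after hCG was 2.47, the wild-type response to hCG was -2.50, and both were still called, at adjusted p values of 0.00255 and 0.00216. The interaction was then 2.36 and was called at 0.0468. That array also had the widest spread over all probe sets, an SD of 0.727 against 0.371 to 0.6 on the others. Leaving out any 1 Inha-/- array after hCG ended the genotype call, with adjusted p values of 0.0861, 0.0858 and 0.0656 for replicates 1, 2 and 3. Leaving out any 1 wild-type array after PMSG likewise ended the call of the hCG response in wild type, with adjusted p values of 0.0727, 0.0868 and 0.082. With the number in the array names as a random block (consensus correlation 0.618) neither difference was called. The values were 3.66 (limma adjusted p = 0.275) between the genotypes after hCG and -3.72 (0.251) for the wild-type response. Wild-type replicates 2 and 3 after hCG share that number, whose meaning the labels do not give. Whether they are independent of each other was not tested, and they also enter the wild-type values of the other members. The wild-type response was also not called with early or late serial as a covariate (-3.45, adjusted p = 0.103), and neither was called when only the groups compared were fitted (0.144 and 0.146). In bulk RNA, fewer cells of a type and less RNA per cell cannot be told apart, here and in the results that follow.

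Nppb, the gene of B-type natriuretic peptide, was not called in any comparison. Its 5 estimates lay between -0.0362 and 0.0256 log2 units.

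Npr1, the cyclase receptor for the atrial and B-type peptides, rose after hCG in wild-type cells. Its values were 0.05, 0.88 and -0.01 in Inha-/- cells after hCG and 3.23, 2.76 and 2.96 in wild-type cells after hCG. Inha-/- cells had -0.41, -0.71 and -0.14 after PMSG, and wild-type cells had 0.01, -0.08 and -0.31. The 3 wild-type arrays after hCG lay above all others. Npr1 was 6.38-fold lower in Inha-/- than in wild-type cells after hCG, a log2 difference of -2.67 ± 0.246 (limma adjusted p = 0.000325). The hCG response was 0.73 ± 0.246 in Inha-/- cells, where the groups did not overlap but limma gave an adjusted p of 0.386. It was 3.11 ± 0.246 in wild-type cells, 8.63-fold, with a limma adjusted p of 9.19e-05. The interaction was -2.38 ± 0.347 (limma adjusted p = 0.0191). That call was lost under quantile normalization (-1.51, adjusted p = 0.203) and without wild-type replicate 2 or 3 after PMSG or Inha-/- replicate 3 after PMSG, where adjusted p was 0.0569, 0.0598 and 0.0524. It was also lost with the replicate number as a block (-2.38, limma adjusted p = 0.0582). With early serials only the interaction was -2.75 and was not called.

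Npr2, the cyclase receptor of C-type natriuretic peptide, fell after hCG in wild-type cells. Its values were -0.81, -0.05 and 0.05 in Inha-/- cells after hCG and -1.03, -0.75 and -2.20 in wild-type cells after hCG, so the genotypes overlapped. Values after PMSG were 0.37, 0.45 and 0.51 in Inha-/- cells and 0.93, 0.18 and -0.05 in wild-type cells. The wild-type response to hCG was -1.68 ± 0.398, a 3.2-fold lower signal (limma adjusted p = 0.0283), and -0.71 in Inha-/- cells with an interval from -1.61 to 0.18. The genotype difference after hCG, 1.05 ± 0.398, was not called by limma at an adjusted p of 0.154. The interaction, 0.97 ± 0.562, was not called either, at a limma adjusted p of 0.757. The wild-type call was lost without wild-type replicate 3 after hCG (-1.24, adjusted p = 0.0715) and without wild-type replicate 1 or 2 after PMSG (0.091 and 0.0676). It was lost as well with the array-name number as a random block (-1.66, adjusted p = 0.178), with early or late serial as a covariate (-1.78, 0.0617) and with only the groups compared (-1.68, 0.116).

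The ligand and its receptor were both lowest on wild-type replicate 3 after hCG, and so were granulosa markers. The median of 10 granulosa genes lay at -0.55 to -0.0161 on Inha-/- arrays and -1.67 to -0.34 on wild-type arrays after hCG, with -1.67 on that replicate. After PMSG it lay at -0.41 to 0.15 in Inha-/- cells and at 0.67 to 0.85 in wild-type cells. Between the genotypes after PMSG, 2 of the 10 genes, Wt1 and Kitl, were lower in Inha-/- cells, where 2.17% of all genes were. Between the genotypes after hCG, 1 was higher (Inhba) and 1 lower (Wt1), where 9.11% and 7.37% of all genes were. For the hCG response, limma called 0 of the 10 genes in Inha-/- cells, where 1.58% of all genes rose and 0.187% fell. In wild-type cells 7 of the 10 fell, where 8.7% of all genes did. The part of this shift in the Nppc and Npr2 results was not tested.

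**Figure D2:**
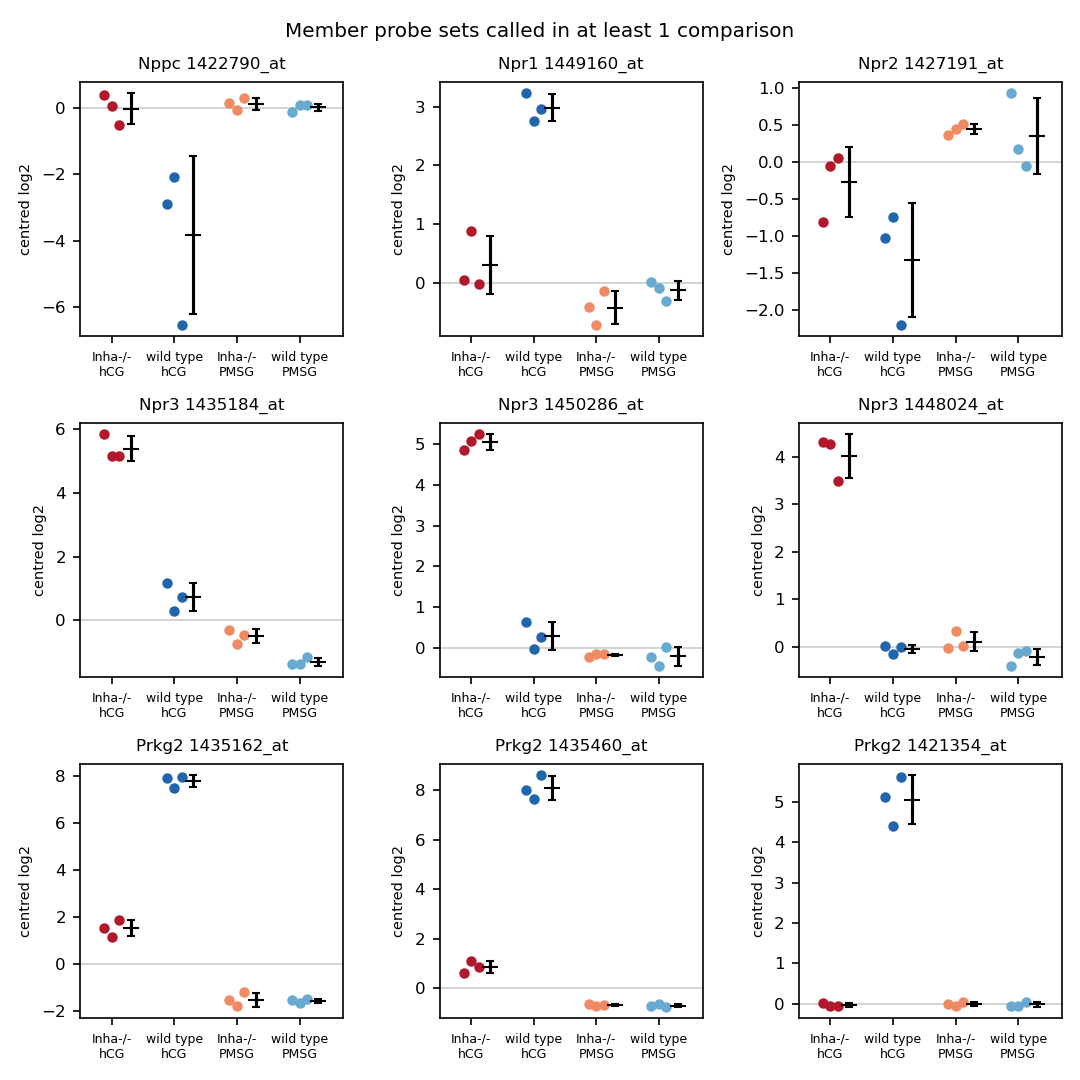
Centred log2 values of the 9 probe sets called in at least 1 comparison, with 1 point for each array and the mean ± SD of 3 arrays to the right of each group; the vertical scales differ between panels. Npr3 is high on the 3 Inha-/- arrays after hCG, Npr1 and Prkg2 are high on the 3 wild-type arrays after hCG, and Nppc is low on those wild-type arrays.

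Npr3, the clearance receptor, rose more after hCG in Inha-/- cells than in wild-type cells. On probe set 1435184_at its values were 5.84, 5.16 and 5.15 in Inha-/- cells after hCG and 1.19, 0.29 and 0.73 in wild-type cells after hCG. After PMSG they were -0.29, -0.73 and -0.44 in Inha-/- cells and -1.36, -1.37 and -1.15 in wild-type cells. The 4 groups did not overlap on this probe set, with Inha-/- cells above wild type at both stages, although the difference after PMSG, 0.81 ± 0.25, was not called (limma adjusted p = 0.168). Replicates 1 and 2 of both genotypes after PMSG share array-name numbers, and with that number as a random block the difference was 0.83 and was called (adjusted p = 0.0335). On 1450286_at the values after hCG were 4.84, 5.06 and 5.23 in Inha-/- cells and 0.64, -0.03 and 0.26 in wild-type cells. On 1448024_at they were 4.30, 4.26 and 3.48 in Inha-/- cells and 0.01, -0.15 and -0.01 in wild-type cells.

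All 3 Npr3 probe sets separated the genotypes after hCG, by 4.65, 4.75 and 4.06 log2 units in the order above, or 25.1-, 27- and 16.7-fold, with limma adjusted p values of 2.57e-05, 2.34e-06 and 2.19e-05. The hCG response in Inha-/- cells was 5.87, 5.21 and 3.91 (limma adjusted p = 3.59e-06, 6.44e-07 and 1.64e-05). The hCG response in wild-type cells was 2.03 on 1435184_at (limma adjusted p = 0.00127) and 0.49 and 0.16 on the other probe sets, which were not called (0.128 and 0.949). The interaction was called on all 3, at 3.84, 4.72 and 3.75 (limma adjusted p = 0.00173, 7.47e-05 and 0.000822). The probe sets correlated at 0.957 to 0.982 with each other over the 12 arrays, and only 1 of them called a response in wild-type cells.

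Markers of some other cell types also differed between the genotypes. The median of 14 oocyte genes lay at 0.19 to 2.81 on the Inha-/- arrays after hCG and at -1.08 to -0.41 on the wild-type arrays. That of 12 theca and stroma genes lay at -0.0145 to 2.02 on Inha-/- arrays and at -1.13 to -0.42 on wild-type arrays. That of 8 smooth muscle genes lay at 0.57 to 1.69 on Inha-/- arrays and at -0.87 to -0.69 on wild-type arrays. Between the genotypes after hCG, 8 of 14 oocyte, 6 of 12 theca and stroma and 4 of 8 smooth muscle genes rose, where 9.11% of all genes did. No oocyte gene of the 14 was called between the genotypes after PMSG, while 3 of the 12 theca and stroma genes and 2 of the 8 smooth muscle genes rose, where 2.06% of all genes did. None of the 9 endothelial and 8 leukocyte genes was called between the genotypes at either stage. Inha-/- replicate 1 after hCG had the lowest medians of its group for oocyte, theca and smooth muscle genes (0.19, -0.0145 and 0.57). Of the Inha-/- arrays after hCG, that replicate had the highest Npr3 value on 1435184_at (5.84) and 1448024_at (4.30) and the lowest on 1450286_at (4.84). The part of these cells in the genotype differences was not tested. Because values are centred, no marker has a zero, and absence of a cell type could not be read.

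**Figure D3:**
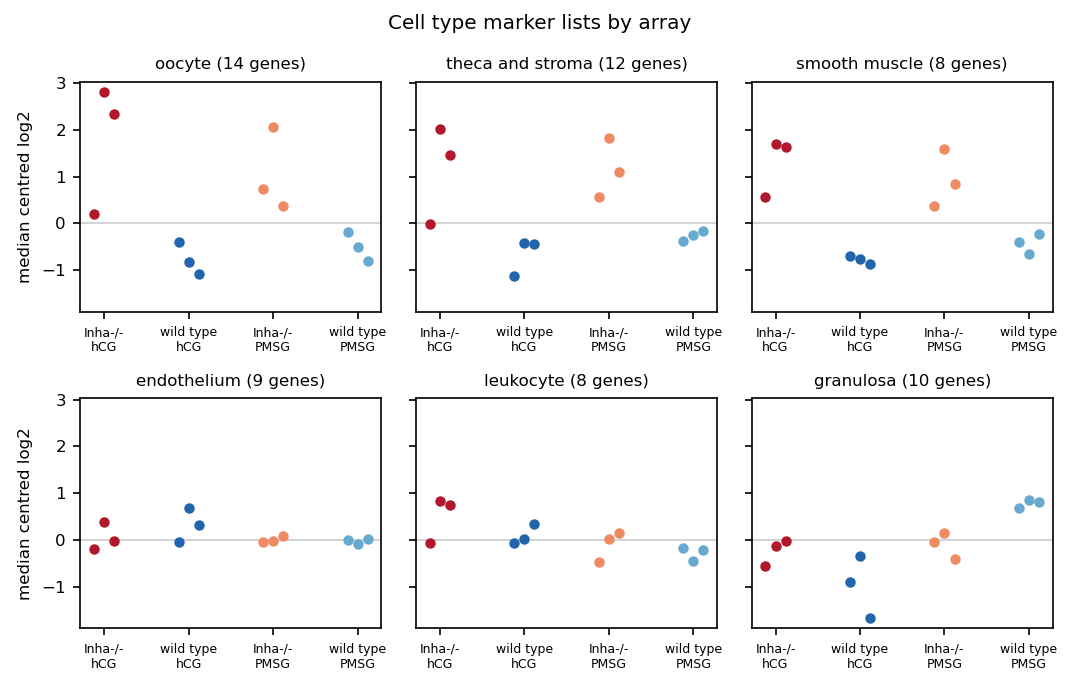
Median centred log2 value of each cell type marker list on each array (points), by group. Oocyte, theca and stroma and smooth muscle medians are higher on the Inha-/- arrays than on the wild-type arrays at both stages, and the granulosa median is highest on the wild-type arrays after PMSG.

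Prkg2, the cGMP kinase that is anchored at membranes, rose after hCG by far more in wild-type cells. On probe set 1435162_at its values were 1.57, 1.18 and 1.89 in Inha-/- cells after hCG and 7.93, 7.49 and 7.96 in wild-type cells after hCG. They were -1.53, -1.78 and -1.18 in Inha-/- cells after PMSG and -1.53, -1.64 and -1.49 in wild-type cells after PMSG. On this probe set hCG separated each genotype from its PMSG arrays, and the genotypes overlapped after PMSG alone. On 1435460_at the values after hCG were 0.63, 1.12 and 0.85 in Inha-/- cells and 8.02, 7.63 and 8.61 in wild-type cells. On 1421354_at they were 0.02, -0.05 and -0.05 in Inha-/- cells and 5.13, 4.41 and 5.62 in wild-type cells.

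The genotype difference of Prkg2 after hCG was -6.24, -7.22 and -5.08 on 1435162_at, 1435460_at and 1421354_at, which makes the signal 75.8-, 149- and 33.8-fold lower in Inha-/- cells (limma adjusted p = 2.23e-06, 2.23e-06 and 1.34e-05). The hCG response in Inha-/- cells was 3.04 and 1.54 on the first 2 (limma adjusted p = 0.000117 and 0.00886). It was -0.0256 on the last, with a 95% interval from -0.56 to 0.51. In wild-type cells the response was 9.34, 8.78 and 5.07 (limma adjusted p = 3.98e-08, 7.68e-08 and 4.35e-06). The interaction was -6.30, -7.24 and -5.09, called on all 3 (limma adjusted p = 7.19e-05, 5.46e-05 and 0.000449). The 3 probe sets correlated at 0.938 to 0.984 over the arrays. A response in Inha-/- cells was called on the first 2 and not on 1421354_at. There, all arrays but the wild-type ones after hCG lay between -0.0539 and 0.0551. Whether that probe set could show a smaller rise was not tested.

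**Figure D4:**
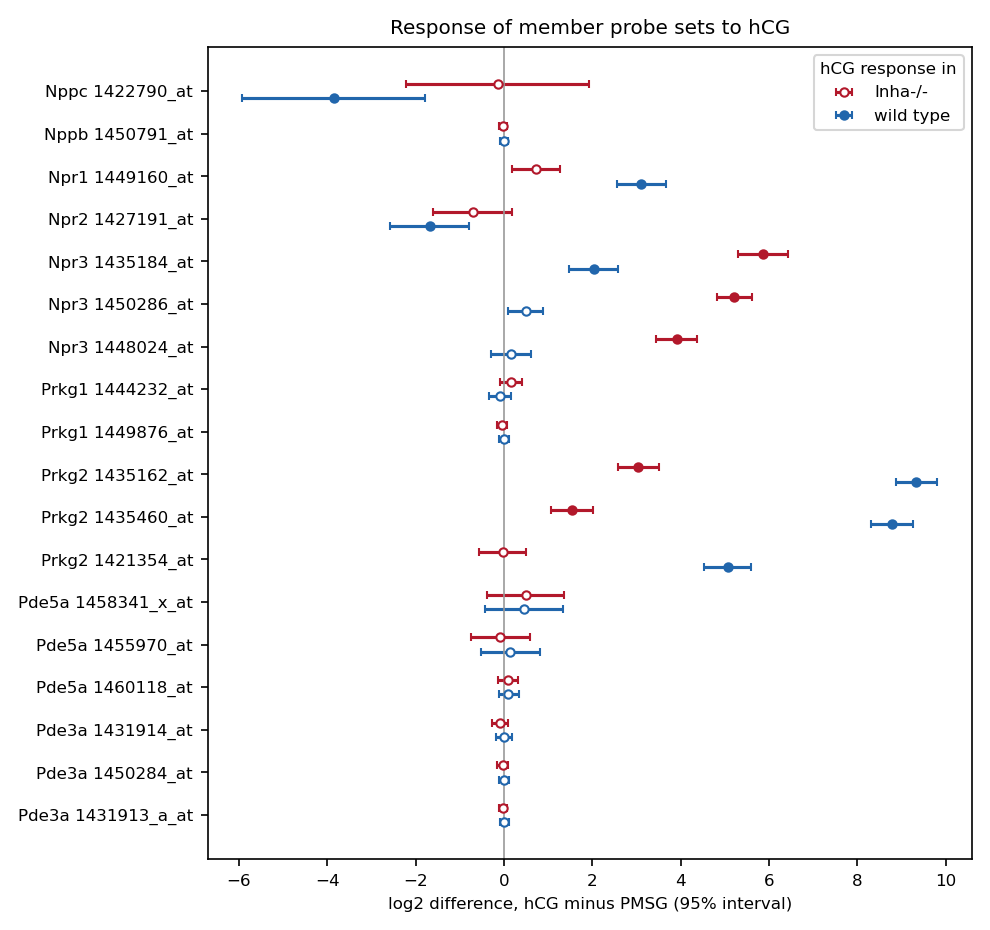
Log2 difference of hCG minus PMSG (x axis) for each probe set in Inha-/- (red) and wild-type cells (blue), with 95% intervals; filled points were called. Prkg2 and Npr1 respond more in wild-type cells and Npr3 more in Inha-/- cells, and intervals of Nppb, Prkg1, Pde5a and Pde3a include 0 in both genotypes.

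By serial number 7 arrays were early and 5 late, and each genotype after hCG had 1 early and 2 late arrays. The genotype differences after hCG of the called members kept their direction on both sides. In early and late arrays, they were -3.18 and -2.42 for Npr1, 4.65 and 4.65 for Npr3 1435184_at, -7.39 and -7.14 for Prkg2 1435460_at and 3.30 and 4.08 for Nppc. Members that were not called differed more, with 0.21 early and 1.47 late for Npr2, and Pde5a changed sign, with -0.63 and 0.49 on 1458341_x_at and -0.15 and 0.80 on 1455970_at. With the late arrays alone, 2 against 2, no member was called after hCG between the genotypes, and the smallest adjusted p of the 8 was 0.0519. All wild-type arrays after PMSG were early, and with early arrays alone the wild-type response to hCG was -2.91 for Nppc, 3.36 for Npr1 and 8.71 for Prkg2 1435460_at, each still called. The Npr2 response was -1.38 there and was not called (limma adjusted p = 0.2). The Nppc interaction, at 3.27, was called with early arrays alone (0.0168), where after hCG each genotype had 1 array and its spread was taken from the PMSG arrays.

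Prkg1, the other cGMP kinase, and Pde3a, the phosphodiesterase through which cGMP acts in the oocyte, were not called in any comparison on any of their probe sets. With Nppb these make 6 probe sets whose SD over the 12 arrays was 0.0299 to 0.136. Inha-/- replicate 3 after PMSG held the highest value on 5 of them, and its array median, 0.093, was the highest of the 12. The largest difference among their comparisons was 0.23, for the interaction on a Prkg1 probe set. The genotype estimates of Pde3a reached at most 0.11 on any probe set.

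Pde5a, which hydrolyses cGMP, had 3 probe sets and no call. Its 15 estimates lay between -0.22 and 0.70 and the smallest limma adjusted p was 0.354. On 1455970_at the values after PMSG were 0.93, -0.11 and 0.36 in Inha-/- cells and -0.67, -0.39 and 0.14 in wild-type cells, which overlap. The probe sets did not follow each other, with correlations of -0.296 to 0.265 over the 12 arrays.

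Other genes of cGMP and cAMP handling were taken from 8 lists of 67 genes, of which 58 were measured. Between Inha-/- and wild-type cells after PMSG, 6 rose and 2 fell, where 2.06% and 2.17% of all genes did. After hCG 10 rose and 3 fell, against 9.11% and 7.37%. The response to hCG gave 6 rises and 0 falls in Inha-/- cells, against 1.58% and 0.187%. In wild-type cells it gave 9 rises and 6 falls, against 7.81% and 8.7%. The interaction gave 1 rise and 1 fall, against 0.308% and 1.1%.

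Of 7 measured phosphodiesterases that split cAMP, 2 rose and 0 fell after hCG in Inha-/- cells, where 1.58% and 0.187% of all genes did. In wild-type cells 2 rose and 1 fell, where 7.81% and 8.7% did. Pde4d rose on 1435280_at by 3.09 in Inha-/- cells and 3.01 in wild-type cells (limma adjusted p = 0.00864 and 0.00279), and its other probe set was not called. Pde4b probe set 1422473_at rose by 3.24 in Inha-/- cells and 4.72 in wild-type cells (limma adjusted p = 0.000438 and 1.61e-05), and it was 1.61 higher in Inha-/- cells after PMSG (0.0206). Pde7b was 2.33 lower on 1450213_at in Inha-/- cells after PMSG (limma adjusted p = 0.0244) and fell by 1.91 after hCG in wild-type cells (0.0202).

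Among the other phosphodiesterases that split cGMP, 3 of 8 rose between the genotypes after hCG, against 9.11% of all genes, and 2 of 8 after PMSG, against 2.06%. Pde3b, which cGMP inhibits, was higher in Inha-/- cells by 2.46 after PMSG and by 1.47 after hCG (limma adjusted p = 0.00513 and 0.0158). Pde9a, specific for cGMP, was higher by 1.95 and 1.97 (limma adjusted p = 0.0176 and 0.00505). Pde10a rose with hCG on 1439618_at by 2.58 in Inha-/- cells and 1.81 in wild-type cells (limma adjusted p = 0.00558 and 0.00933). Of its 5 probe sets no other was called for the wild-type response. In Inha-/- cells 1419389_at was also called, at 2.35 (limma adjusted p = 0.00395). Pde1a rose on 1449298_a_at by 1.43 after hCG in wild-type cells (limma adjusted p = 0.0402), and its other probe set was not called.

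Among substrates and partners of the cGMP kinases was Rgs2, a regulator of G protein signalling that PRKG1 phosphorylates. It rose after hCG in wild-type cells on 4 probe sets, by 1.06 to 2.87. In Inha-/- cells all 4 rose, by 0.87 to 1.09, and only 1419247_at was called (limma adjusted p = 0.00376). Its probe set 1443250_at was 2.14 lower in Inha-/- than in wild-type cells after hCG (limma adjusted p = 0.000507), with an interaction of -1.94 (0.0271). On its other probe sets the interaction was -0.34, -0.19 and -0.41 and was not called. Kcnma1, the large-conductance potassium channel, was higher in Inha-/- cells after hCG on 3 probe sets, by 2.34, 2.99 and 2.03. Its 1428948_at had an interaction of 1.46 (limma adjusted p = 0.0322). The interaction was not called on the other Kcnma1 probe sets, at 1.98, 2.68, -0.0233 and 0.18. Slc9a3, the sodium-proton exchanger, was higher in Inha-/- cells on 1441236_at by 1.46 after PMSG and 2.59 after hCG (limma adjusted p = 0.0378 and 0.000859). Its other probe set was not called. Gtf2i, a transcription factor, fell after hCG in wild-type cells by 0.78 and 1.12 on 2 probe sets (limma adjusted p = 0.014 and 0.0344).

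Genes of gap junctions, export pumps and cGMP-gated channels formed another list. Gjc1, a gap junction connexin, was higher in Inha-/- cells by 1.50 after PMSG and 1.37 after hCG on 1447787_x_at (limma adjusted p = 0.00624 and 0.00252). Gja1, the main connexin of granulosa cells, was higher in Inha-/- cells after hCG by 0.53 to 0.54 on 3 probe sets. In wild-type cells it fell after hCG by 1.87 on 1415801_at (limma adjusted p = 0.0207), where the genotype difference of 1.34 was not called (0.0783). It also fell on 1438650_x_at and 1438945_x_at, by 0.43 and 0.54 (limma adjusted p = 0.024 and 0.0176). The fall was not called on its other probe sets. Cnga1, a cGMP-gated channel subunit, was 1.47 lower in Inha-/- cells after hCG (limma adjusted p = 0.00233).

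Of the enzymes that process the peptides, Furin, a convertase, rose by 1.91 after hCG in wild-type cells (limma adjusted p = 0.0149). In Inha-/- cells Furin rose by 0.80, which was not called (limma adjusted p = 0.691). The Furin interaction of -1.11 was not called either (0.629). Pcsk6, a related convertase, rose by 1.88 in Inha-/- cells and 1.23 in wild-type cells after hCG (limma adjusted p = 0.0111 and 0.021) and was 1.41 higher in Inha-/- cells after hCG (0.0106). Nos3, an endothelial nitric oxide synthase, was 0.63 lower in Inha-/- cells after PMSG (limma adjusted p = 0.0232), the only call among 9 measured cyclases and synthases. Impdh1, an enzyme of guanine nucleotide synthesis, was 0.62 higher in Inha-/- cells after hCG and fell by 0.78 after hCG in wild-type cells (limma adjusted p = 0.0138 and 0.00507). Adcy3, an adenylyl cyclase from the list on meiotic arrest, was higher in Inha-/- cells by 1.50 after PMSG and 2.52 after hCG on 1421959_s_at (limma adjusted p = 0.0022 and 4.09e-05), and Adcy9 fell by 1.13 after hCG in wild-type cells on 1419811_at (0.0133).

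**Figure D5:**
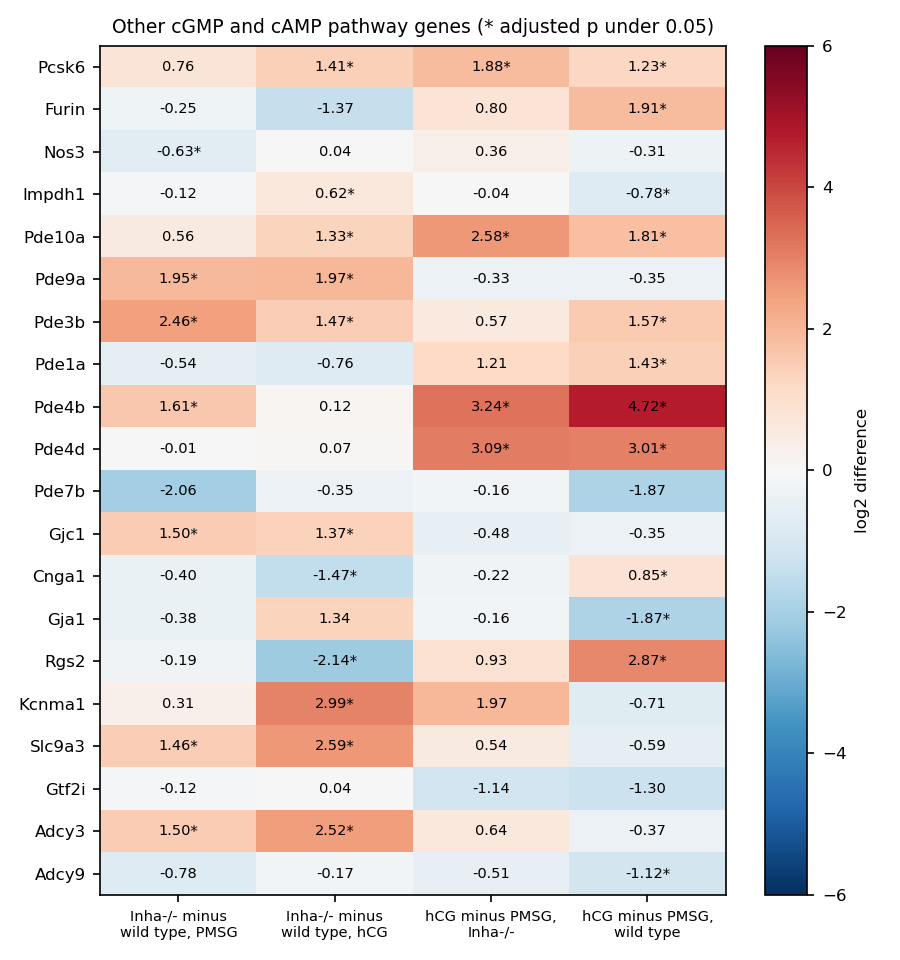
Log2 differences of 20 other pathway genes (rows) in 4 comparisons (columns), each from the probe set of that gene whose SD was largest; an asterisk marks an adjusted p under 0.05. Pde4b and Pde4d respond to hCG in both genotypes, and Pde9a, Gjc1, Slc9a3 and Adcy3 are higher in Inha-/- cells at both stages.

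The genes whose patterns were most like those of the members were found by Pearson correlation over the 12 arrays with the member probe set of largest SD, across all single-gene probe sets. Nppc was most like Inhbb, the inhibin beta-B subunit, at 0.986, followed by Nap1l5 at 0.983 and Tgif1 at 0.982. Npr1 was most like Pitpnc1 and Zpr1, both at 0.989, and Sphk1 at 0.988. Npr2 was most like Sspn at 0.967, Ctc1 at 0.965 and Hsd11b2 at 0.964. Npr3 was most like 4930447M23Rik at 0.971, Flvcr1 at 0.969 and Pxdc1 at 0.963, and Prkg2 was most like Tex30 at 0.989, Vcpkmt at 0.988 and Errfi1 at 0.987. These correlations rest on the differences between the same 4 groups. Those of Nppc also depend strongly on wild-type replicate 3 after hCG, where Nppc lay at -6.53 and on the next lowest array at -2.89. The ranking without that replicate was not computed.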

How the data were processed

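Each of the 12 granulosa samples was hybridized to 1 Affymetrix mouse array of a single colour. The authors deposited log2 values made with GCRMA, per the submitters' processing notes (version: not given in the sources used here). Deposited values of every probe set have a median of 0 (the largest departure is 5e-07), so they were centred, and the labels do not mention it. No scaling was added. Samples were grouped by their titles and characteristics. Of 45101 probe sets, 64 controls were left out. A group-means model was fitted in limma 3.58.1 (R 4.3.3) to all 12 arrays without a filter, since a filter would let members in by the group where they are high. Of the probe sets 34945 name 1 gene and 932 several genes, and probe sets of several genes were not used for names. Values after ± are standard errors of log2 differences.

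The members, lists, named-gene rule and alternatives were chosen with earlier results of these data known. Named genes were Inha, the 9 members, up to 4 genes of each pathway list with the smallest adjusted p, and the 3 genes most correlated with each called member. A list gene rose or fell where at least 1 probe set was called that way and none the other way.

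The fit was run on simulated arrays with independent noise. That run cannot test the effect of shared array-name numbers or of an outlying array, since it holds neither. Whether samples that share a replicate number in the titles are paired was not settled. Of 18 such pairs, 6 correlated above 0.1 in their deviations from the group means (-0.141 to 0.247). Between the genotypes after PMSG, same-number pairs correlated at 0.189, 0.247 and 0.0954, and different-number pairs at -0.19 to 0.0288. The reported fit does not pair samples. The number of arrays limits the precision. Alternatives were a filter on SD, 1 probe set per gene, array weights, quantile normalization, robust moderation, fitting only the groups compared, a replicate block, the array-name number as a random block, early or late serials as a covariate or alone, and leaving out each array.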

Additional observations from a re-analysis of the deposited data

Results flagged for a closer look

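The hCG response differed between Inha-/- and wild-type cells by the test of the interaction for 9 probe sets, each value being the Inha-/- response minus the wild-type response on the log2 scale. Npr3 responded more in Inha-/- cells, at 3.84, 4.72 and 3.75 on its 3 probe sets. Prkg2 responded less, at -6.30, -7.24 and -5.09 on its 3 probe sets, and Npr1 responded less, at -2.38. Among the other pathway genes, Rgs2 had -1.94 on 1443250_at and Kcnma1 had 1.46 on 1428948_at. The interaction was not called on the other probe sets of either gene.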

How the results depend on the processing

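No called result changed direction in any alternative run. Counts of called member probe sets that moved by more than 1.5 times, or from 0, were as follows. After PMSG 0 became 2 with array weights and 1 with the array-name number as a random block. Between genotypes after hCG 8 became 4 of 6 with 1 probe set per gene (21.4% of 12500 genes) and 0 with late serials only. In the Inha-/- response to hCG 5 became 2 of 6 with 1 probe set per gene (2.67%), 12 with array weights and 9 with late serials only. In the interaction 7 became 3 of 6 with 1 probe set per gene (2.09%). Smaller moves were 8 to 7 after hCG between genotypes, where Nppc was lost, and 7 to 5 in the wild-type response, where Nppc and Npr2 were lost, both with the random block and with only the groups compared; the serial covariate also gave 5 in the wild-type response. The random block left 4 of 5 in the Inha-/- response. The fit with array weights, whose estimation stopped before it converged, gave 10351 to 21665 calls over the table. The reported fits gave 342 to 4541, and the cause was not tested. The random block gave 2880 calls after PMSG, 1725 for the wild-type response, 2136 between genotypes after hCG and 184 for the interaction, against 1016, 4396, 4541 and 342. Fitting only the groups compared gave 419 calls after PMSG and 187 for the Inha-/- response (455 as reported). Early arrays alone gave 138, 1211, 2100 and 286 for PMSG, genotype after hCG, wild-type response and Inha-/- response, late arrays alone gave 83 for genotype after hCG, and the SD filter gave 527 for the interaction. Leaving out 1 array gave 499 to 1305 calls after PMSG, 2679 to 4800 between genotypes after hCG, 309 to 507 for the Inha-/- response, 2432 to 4760 for the wild-type response and 151 to 836 for the interaction.

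A replicate block left 89 of 90 member results on their side of the threshold; the Npr1 interaction was lost (-2.38, adjusted p = 0.0582), and the table counts were 930, 4388, 4300, 403 and 278. Of the single results, Nppc between genotypes after hCG was lost in 6 of 23 alternatives (2.47 to 5.14), the Nppc response in wild type in 6 of 22 (-5.43 to -2.50), the Npr2 response in wild type in 7 of 22 (-2.06 to -1.24) the Npr1 interaction in 6 of 21 (-2.75 to -1.51) and the Inha-/- response of Prkg2 1435460_at in 2 of 22 (1.31 to 1.66). The 7 other genotype calls after hCG were lost with late serials only. Prkg2 in the wild-type response, Npr3 in the Inha-/- response and both in the interaction were called in every alternative run. With 3 arrays a group the moderated fit had 9.27 degrees of freedom.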
